A study of Mus musculus with 6 samples.

Results

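The genes described here encode heat shock proteins and their partner chaperones in basal keratinocytes of mouse ear epidermis. They were chosen by a naming rule, with earlier results of these data known. The rule took every row whose gene name starts with Hspa, Hspb, Hspd, Hspe, Hsph, Dnaja, Dnajb, Dnajc, Bag or Cct followed by a digit. Names starting with Hsp90 followed by a digit or a letter were taken too, and names containing -ps were left out. Of 49671 rows, 88 met this rule, and they carry 87 gene symbols in 11 families, since 2 rows are named Hspa14. The mice were CD1, an outbred stock, and were intact males, females or castrated males, with 2 libraries in each of these 3 groups. No genetic alteration is named for any group, and the age of the mice and the time since castration are not given in the labels. Ear epidermis was loosened in trypsin overnight in the cold, and the sort kept living cells with integrin alpha 6 and without CD34, that is basal interfollicular cells without those of the follicle bulge. Each library was polyA RNA of 100000 sorted cells pooled from 2 littermates. The p-values therefore speak of the variation among pools only, and litter and group cannot be told apart.

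Chaperones bind unfolded stretches of other proteins and let them fold, refold or be passed on for degradation. Hsp70 proteins (Hspa genes) work in cycles of ATP use that J proteins (Dnaj genes) start and that Bag and Hsp110 proteins end by exchanging the nucleotide, and Hsp90 proteins finish the folding of many kinases and steroid receptors, the androgen and estrogen receptors among them. Ring-shaped chaperonins enclose their substrates: Hspd1 with its lid Hspe1 in mitochondria, and the TRiC ring built from Cct subunits in the cytosol, which folds actin and tubulin. Heat and other stress raise many cytosolic members through heat shock factor Hsf1, while the endoplasmic reticulum (ER) has members of its own, such as Hspa5 (BiP), which the unfolded protein response controls.

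Library depth was 8412487 to 9648154 reads assigned to genes, and values are in CPM, a gene's reads relative to its library's total after a trimmed-mean scaling between libraries. A gene was tested if it had at least 1.16 CPM, worth 10 reads at the median depth, in at least 2 libraries. Changes were tested with limma on log2(CPM + 0.5) and called at a Benjamini-Hochberg adjusted p below 0.05 over the 15413 genes tested, and all log2 fold changes are on that scale with their standard errors. Summed CPM of 6 basal keratinocyte markers was 31830 and 33880 in males and 31990 and 37050 in females, most of it Krt5 and Krt14. After castration the sum was 32060 and 33580. The basal adhesion genes Col17a1 and Itgb4 were lower in both female libraries than in both male libraries. Their log2 fold changes were -0.57 (adjusted p = 0.109) and -0.45 (adjusted p = 0.0705). Of the 6 basal markers 0 were called in this comparison by limma and 2 reached an unadjusted p below 0.05. The sum of 6 fibroblast markers was 7.69 to 26.9 CPM. That of 6 muscle markers was 4.55 to 6.03 CPM, and only Des among them had 0 reads in every library. The 4 suprabasal markers summed to 637 and 768 CPM in males, 1056 and 1354 in females and 1026 and 1070 after castration. The 6 leukocyte and Langerhans cell markers summed to 223 to 269 CPM in males and castrated males and to 613 and 1369 in females, nearly all of it Cd74, with Ptprc (CD45) at 2.24 to 4.66 CPM in every library. The part of these cells in the results below was not tested, and in bulk RNA fewer cells of a type and less RNA per cell cannot be told apart.

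Promoters that hold a known stress element are shown first, for the called genes Hspe1 and Hspa1b, for Hspa1a and for the ER chaperones Hspa5 and Hsp90b1. The windows of the called genes Hspa2 and Hspa4l held none of the elements searched and are not printed. RefSeq windows of 250 bases before and 50 after a transcription start (GRCm38.p6) matched 71 of the 87 symbols, with 91 windows. The triple heat shock element GAANNTTCNNGAA (both strands; it contains both shorter pairs below) was found in 6 of the 91 windows (6.59%), against 0.603% of all 32851 windows, and the genes were Dnajb6, Hspd1, Hspe1 and Hsph1. The windows of Dnajb6 overlap and hold the same site, as do those of Hsph1, and Hspd1 and Hspe1 share a stretch. The 6 windows therefore hold fewer than 6 separate sites, and the shares of the shorter pairs count these sites in the same way. The ER stress element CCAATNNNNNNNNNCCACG was found in 3 windows (3.3%, against 0.119% of all), those of Dnajc3, Hsp90b1 and Hspa5. The pair GAANNTTC was in 20.9% of the member windows and 7.86% of all, and the pair TTCNNGAA in 10.99% and 8.52%. Full palindromes for estrogen and androgen receptors (GGTCANNNTGACC and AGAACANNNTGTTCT) were in 0 member windows and in 0.070% and 0.009% of all. A match describes the letters only. The 250 bases before the start are printed 5′ to 3′ on the gene's strand, with a matched element in capitals: the triple heat shock element, present as a pair of overlapping matches, in Hspe1 (chr1:55087898-55088147, plus strand), the ER stress element in Hspa5 (chr2:34771840-34772089, plus strand) and on both strands in Hsp90b1 (chr10:86705445-86705694, minus strand), and the short pair GAANNTTC in the twin genes Hspa1a (chr17:34972157-34972406, minus strand) and Hspa1b (chr17:34959239-34959488, minus strand).
Hspe1: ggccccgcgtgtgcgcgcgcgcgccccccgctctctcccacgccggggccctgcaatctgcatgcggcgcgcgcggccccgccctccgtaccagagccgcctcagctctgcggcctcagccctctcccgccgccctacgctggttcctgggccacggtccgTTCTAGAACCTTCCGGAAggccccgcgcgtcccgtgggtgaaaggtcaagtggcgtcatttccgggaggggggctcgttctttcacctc
Hspa5: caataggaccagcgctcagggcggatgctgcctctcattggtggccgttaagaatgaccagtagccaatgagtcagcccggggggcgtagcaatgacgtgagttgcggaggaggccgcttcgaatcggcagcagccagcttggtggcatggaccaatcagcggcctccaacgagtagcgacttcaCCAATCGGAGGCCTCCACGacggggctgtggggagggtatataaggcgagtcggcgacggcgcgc
Hsp90b1: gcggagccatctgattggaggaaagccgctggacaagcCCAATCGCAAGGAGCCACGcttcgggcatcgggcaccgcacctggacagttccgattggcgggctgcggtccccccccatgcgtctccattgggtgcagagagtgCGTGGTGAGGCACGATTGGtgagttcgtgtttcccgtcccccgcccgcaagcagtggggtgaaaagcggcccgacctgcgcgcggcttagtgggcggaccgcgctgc
Hspa1a: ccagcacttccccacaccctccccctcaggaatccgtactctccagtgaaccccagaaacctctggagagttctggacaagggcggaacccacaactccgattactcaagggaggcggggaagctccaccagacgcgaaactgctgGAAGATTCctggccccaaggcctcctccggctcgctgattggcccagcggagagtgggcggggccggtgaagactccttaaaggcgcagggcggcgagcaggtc
Hspa1b: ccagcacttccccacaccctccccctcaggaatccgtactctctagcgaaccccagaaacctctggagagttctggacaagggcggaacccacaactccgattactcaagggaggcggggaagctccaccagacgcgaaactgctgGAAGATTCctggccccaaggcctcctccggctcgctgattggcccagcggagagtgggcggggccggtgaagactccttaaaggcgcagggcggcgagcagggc
The Hspe1 element starts at -89 from the transcription start, and the window of Hspd1, its neighbour on the other strand, holds the same stretch in reverse. Hspa1a and Hspa1b differed at 3 of the 250 bases (98.8% identity), written with the Hspa1a base first and counted from the 5′ end as C44T, T47C and T249G.

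Of the 88 members, 77 were tested, and 75 of these passed the minimum level in all 6 libraries. Hspa1l and Hspb2, both below 4 CPM throughout, did not. Hspb2 passed in both libraries of castrated males only, and Hspa1l in both of males and of castrated males. These genes stay in the counts below, where their low female values support nothing. Between females and males 4 members were called (5.19%), against 6.1% of all tested genes, so the share of members called was near the background. Hspa4l and Hspe1 rose in females (3.7% of all tested genes were called higher), and Hspa2 and Hspa1b fell (2.39% called lower). The 77 tested members had a median log2 fold change of 0.13, with 48 above 0, beside -0.01 and 7530 above 0 for the 15413 genes tested. Both female libraries lay above both male libraries in 35 members, 45.5%, where 26.6% of all tested genes did so, and below them in 20, 26%, where 27.2% did. An unadjusted p below 0.05 was reached by 26 of the 77 members and by 3834 of the 15413 genes tested. That share of all genes is the background for every such count between females and males below. With voom precision weights 3 members were called, Hspe1 no longer among them. Wherever a family or list is given below with 0 calls, voom weights also gave 0. These counts lean on female replicate 2, which held the highest of the 6 values for 37 of the 77 members (48.1%) and for 31.6% of all tested genes. Counts of calls with 1 library left out, here and below, show how unstable the calls are and are not a result about chaperones. Among all tested genes 940 were called with all 6 libraries in the fit. Female replicate 2 also had the highest Cd74 and suprabasal marker levels. Without it 0 members were called by limma (12 at an unadjusted p below 0.05, 49 of all genes called), and without female replicate 1 the count was 18. It was 1 without either castrated male library, which serve only to estimate the spread here, 2 without male replicate 2 and 3 without male replicate 1.

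**Figure D1:**
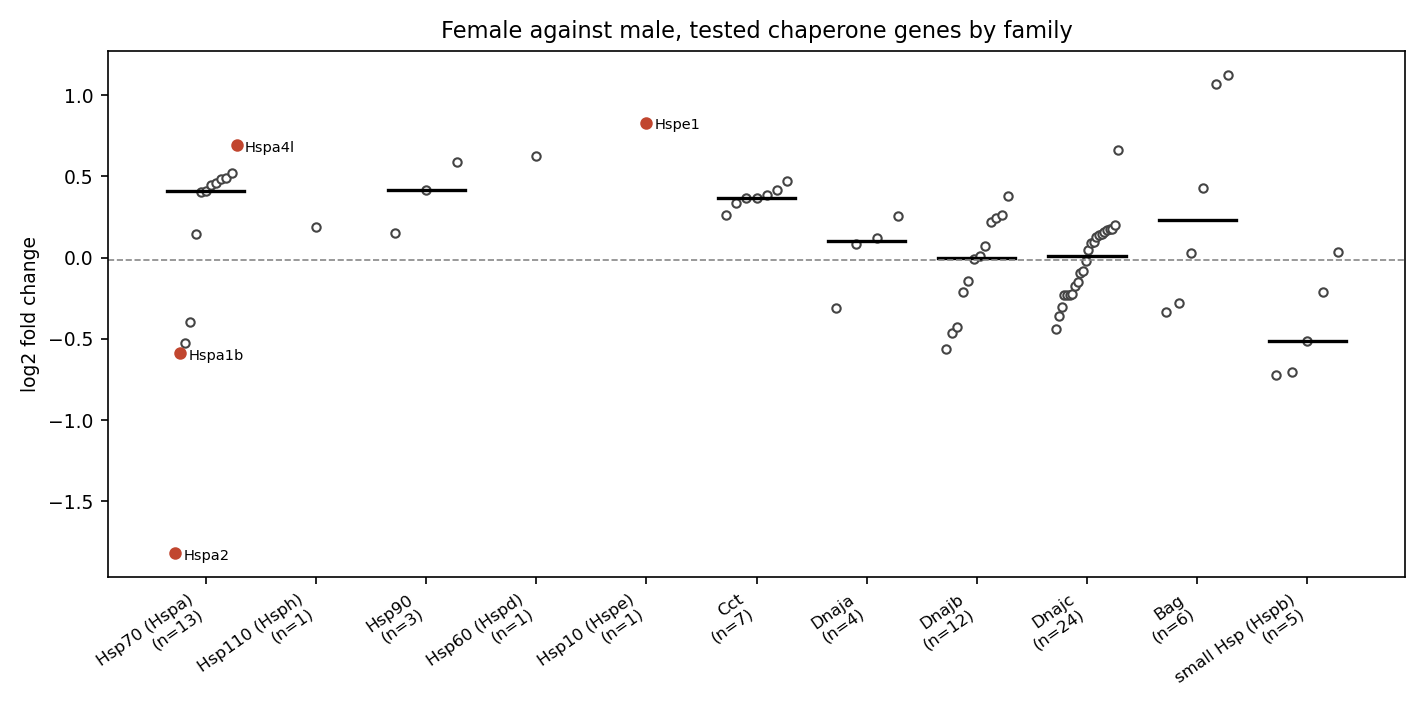
Log2 fold change (vertical axis, log2(CPM + 0.5) scale) of females against males for each of the 77 tested chaperone genes, by family. Red filled points are called genes with their names, open points are not called, black bars are family medians and the dashed line is the median of all tested genes; all 7 Cct subunits lie above 0, and Hspa2 lies lowest at -1.82.

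The Hsp70 family, here all genes named Hspa, held 3 of the 4 calls and pointed both ways. These were 23.1% of its 13 tested rows, where 6.1% of all tested genes were called, and no test was run over the family. Hspa2, an Hsp70 best known for its need in sperm formation (ENSMUSG00000059970, chromosome 12, 76404176 to 76406938 in GRCm38), stood at 43.9 and 32.4 CPM in males, 11.6 and 9.23 in females and 33.0 and 24.8 after castration. Females lay apart below both other groups, while males and castrated males overlapped. Hspa2 fell in females against males by 1.82 on the log2 scale (SE 0.22, adjusted p = 0.00615), the largest change of any tested member. It shares none of its 50-base windows with another gene, so its reads are not divided with a relative.

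Hspa1a and Hspa1b encode the stress-inducible Hsp70, and heat shock raises both. Hspa1b (chromosome 17, 34956436 to 34959238) stood at 104 and 100 CPM in males, 71.3 and 64.2 in females and 80.4 and 79.9 after castration. The groups did not overlap, with males highest and females lowest. Hspa1b fell in females against males by 0.59 (SE 0.12, adjusted p = 0.0299). Hspa1a (chromosome 17, 34969190 to 34972156) was at 137 and 147 CPM in males, 107 and 90.6 in females and 121 and 115 after castration, with the groups in the same order. Its log2 fold change in females against males was -0.52 ± 0.13 (adjusted p = 0.0502), which narrowly missed the threshold. Hspa1a and Hspa1b share 66.3% and 62.3% of their 50-base windows with other genes, mainly each other, so how the reads divide between them is uncertain, and they are not independent of each other. Their neighbour Hspa1l, a testis relative, had 1.02 to 3.53 CPM.

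**Figure D2:**
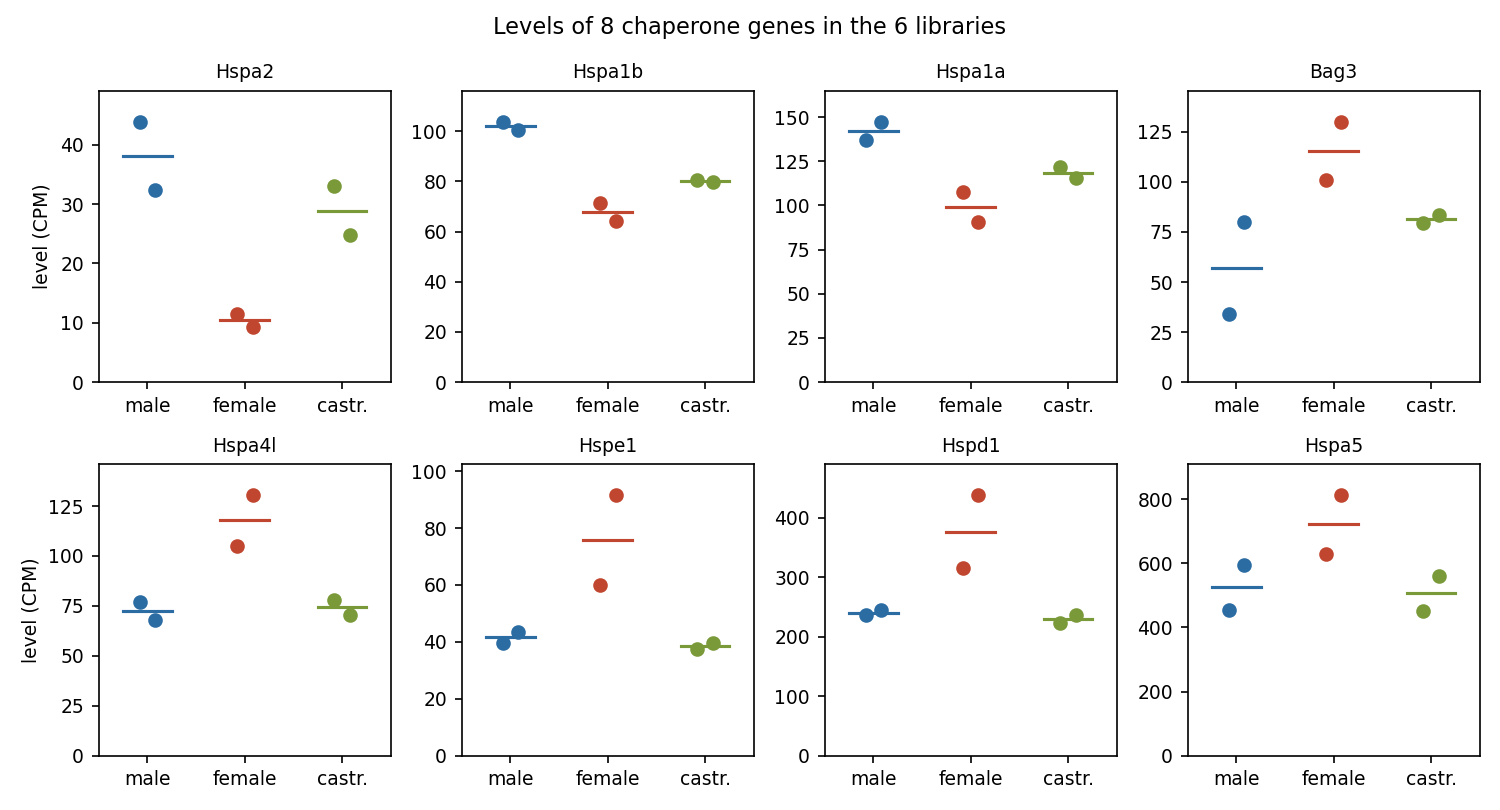
Level in CPM (vertical axes, from 0) of 8 chaperone genes in each of the 6 libraries, by group; points are libraries, bars are means of 2 and castr. stands for castrated male. Hspa2, Hspa1b and Hspa1a are lowest in females, and the female libraries lie above the others for Bag3, Hspa4l, Hspe1, Hspd1 and Hspa5.

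Other cytosolic Hsp70 genes had positive differences, and members outside the called ones and those preset for per-library values, such as Hspa4 and Hspa12a, are given because of the values seen. Hspa4l, a large Hsp70 relative that exchanges the nucleotide of Hsp70 (chromosome 3, 40744495 to 40796103), stood at 77.01 and 68.0 CPM in males, 105 and 130 in females and 77.9 and 70.6 after castration. Females lay above both other groups, which overlapped. Hspa4l rose in females against males by 0.69 ± 0.15 (adjusted p = 0.0327). Its close relative Hspa4 was at 37.7 and 40.3 CPM in males and 49.6 and 54.1 in females (log2 fold change 0.41 ± 0.14, adjusted p = 0.118). Hspa8, the constitutive Hsp70 (Hsc70), stood at 685 and 669 CPM in males, 810 and 1105 in females and 603 and 701 after castration. Females were highest without overlap, yet the difference of 0.48 ± 0.17 did not pass the test (adjusted p = 0.116), and 74.8% of the Hspa8 windows are shared with other genes. Hspa12a, a distant Hsp70 relative, was at 14.5 CPM in both male libraries and 20.04 and 18.7 in females (0.41 ± 0.17, adjusted p = 0.179). The 2 rows named Hspa14, which overlap on chromosome 2, had log2 fold changes of 0.49 and 0.44. In all, 9 of the 13 tested Hspa rows were above 0 with a median of 0.41, and the 4 below 0 were Hspa2, Hspa1a, Hspa1b and Hspa1l.

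Hsph1, an Hsp110 protein and a heat shock factor target, stood at 28.4 and 50.2 CPM in males, 44.7 and 41.5 in females and 34.3 and 40.6 after castration. Its groups overlapped between females and males, with the male libraries at both ends (0.19 ± 0.24, adjusted p = 0.678). Without male replicate 1 the sign of this difference turned, to -0.21.

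In mitochondria, incoming proteins are pulled in by Hspa9 (mortalin) and folded by the Hspd1 and Hspe1 chaperonin. Hspe1, the lid of the ring (chromosome 1, 55088132 to 55091307, plus strand), stood at 39.7 and 43.4 CPM in males, 60.1 and 91.5 in females and 37.5 and 39.7 after castration. Both female values exceeded the other 4, and the female libraries differed from each other more than the male libraries did. Hspe1 rose in females against males by 0.83 ± 0.20 (adjusted p = 0.0432). Hspd1, the ring itself (chromosome 1, 55077835 to 55088243, minus strand), was at 237 and 244 CPM in males, 316 and 438 in females and 222 and 236 after castration, with females again apart from the rest. Its difference of 0.63 ± 0.16 missed the threshold (adjusted p = 0.0522). The pair overlap head to head by 112 bases and share 44.8% of their windows each with other genes, pseudogenes and each other included, so their values are uncertain to that extent. Hspa9 stood at 492 and 502 CPM in males, 613 and 829 in females and 459 and 470 after castration, with a difference of 0.52 ± 0.15 (adjusted p = 0.0797). These sizes depend on the female library. Without female replicate 2 the differences of Hspe1, Hspd1 and Hspa9 were 0.53, 0.39 and 0.30 and none was called, and without female replicate 1 they were 1.14, 0.87 and 0.74 and all 3 were called. Dnajc15, a J protein of the inner membrane, had 29.7 CPM in both male libraries and 42.1 and 53.3 in females (0.66 ± 0.18, adjusted p = 0.0673). Of the 10 mitochondrial members 6 were above 0, with a median of 0.13, and the 4 below 0 were J proteins (Dnajc4, Dnajc11, Dnajc28 and Dnajc30). Of 12 other genes of mitochondrial protein import and turnover, 0 were called by limma, 2 reached an unadjusted p below 0.05, 10 were above 0 and the median was 0.22. Among them was Trap1, the mitochondrial Hsp90, at 151 and 178 CPM in males and 198 and 279 in females (0.52 ± 0.18, adjusted p = 0.121).

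In the ER, Hspa5 (BiP) binds nascent chains and Hsp90b1 (Grp94) folds integrins and other membrane proteins. Hspa5 stood at 456 and 594 CPM in males, 631 and 812 in females and 450 and 562 after castration. Both female values were above the 4 others, although male replicate 2 lay close to female replicate 1 (0.46 ± 0.19, adjusted p = 0.170). Hsp90b1 was at 360 and 461 CPM in males, 531 and 705 in females and 381 and 519 after castration, and females were again above the others (0.59 ± 0.20, adjusted p = 0.117). Dnajb11, the J protein that hands unfolded chains to BiP, had 115 CPM in both male libraries, 119 and 156 in females and 103 and 104 after castration. Its groups did not overlap, though 1 female library lay close to the males (0.24 ± 0.15, adjusted p = 0.341). Dnajb9, a J protein induced by ER stress, stood at 59.3 and 47.5 CPM in males, 49.1 and 42.6 in females and 44.5 and 42.9 after castration. Females and males overlapped (-0.21 ± 0.16, adjusted p = 0.440). Dnajc3, which also inhibits the kinase PERK of the unfolded protein response, was at 51.0 and 52.3 CPM in males, 56.4 and 54.1 in females and 55.4 and 45.9 after castration, a difference between females and males of 0.10 ± 0.14 (adjusted p = 0.716).

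ER members fold secreted and membrane proteins, and cytosolic members most others. The 8 ER lumen members had a median log2 fold change of 0.15 in females against males, with 6 above 0, 5 higher and 1 lower (Dnajc1) without overlap of the groups, 2 at an unadjusted p below 0.05 and 0 called by limma. The 39 tested cytosolic and nuclear members had a median of 0.20, with 27 above 0, 19 higher and 10 lower without overlap, and 3 called. Of all tested genes 26.6% were higher and 27.2% lower without overlap and 6.1% were called, so the cytosolic counts of lower and of called genes were near the background. The order of the ER and cytosolic medians was not stable: they were 0.04 and 0.09 without female replicate 2, and 0.32 and 0.26 without female replicate 1. The 5 J proteins of the ER membrane had a median of -0.02 with 1 above 0, and 0 were called or reached an unadjusted p below 0.05. The 15 tested members of no assigned compartment had a median of 0.05 with 8 above 0. Dnajc2, a J protein of the ribosome, was among them, so the cytosolic list does not hold every cytosolic member. Summed over members, ER lumen levels were 1183 and 1407 CPM in males, 1523 and 1936 in females and 1177 and 1415 after castration. The cytosolic sums were 6340 and 6328 CPM in males, 6827 and 8402 in females and 5936 and 6447 after castration. As a percent of the cytosolic sum the ER lumen sum was 18.7 and 22.2 in males, 22.3 and 23.0 in females and 19.8 and 22.0 after castration. The females lay only just above the rest, since male replicate 2 and castrated male replicate 2 came close to female replicate 1. The difference between the ER and cytosolic summaries was not tested. Of 27 tested genes outside the members that belong to the ER unfolded protein response, 0 were called by limma in females against males, 19 were above 0, 7 reached an unadjusted p below 0.05 and the median was 0.20. The closest to the threshold were Edem1, which removes misfolded glycoproteins (1.03 ± 0.26, adjusted p = 0.0507), Manf, an ER stress-induced secreted protein (0.54 ± 0.13, adjusted p = 0.0508), and Atf4, a factor of the stress response (0.55 ± 0.14, adjusted p = 0.0512). Ddit3 (CHOP), a late target of that response, was at 23.0 and 23.1 CPM in males and 18.9 and 19.2 in females (-0.27, adjusted p = 0.367).

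**Figure D3:**
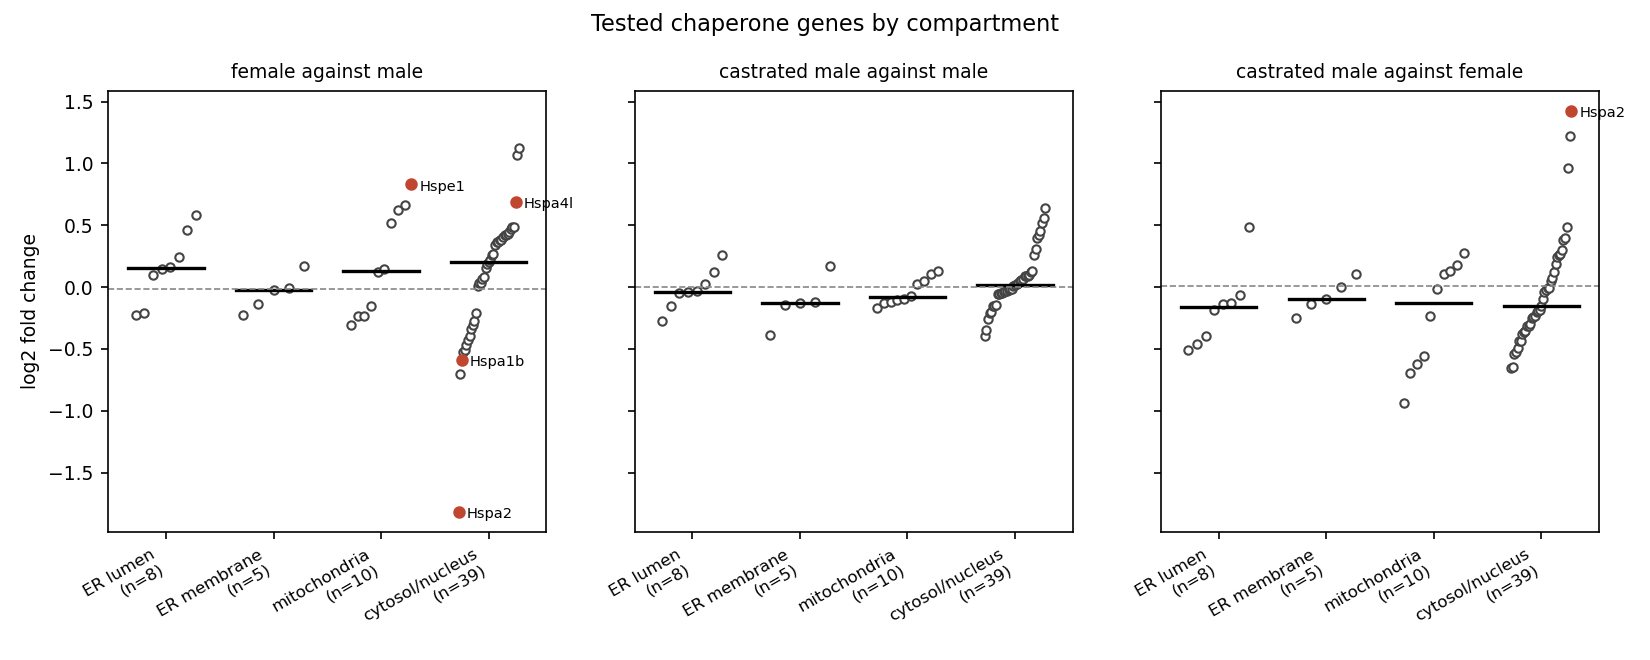
Log2 fold change (vertical axis, log2(CPM + 0.5) scale) of tested chaperone genes by compartment in the 3 comparisons; the 15 tested members of no assigned compartment are not drawn. Red filled points are called genes, open points are not called, black bars are medians and dashed lines are the median of all tested genes; the ER lumen median is 0.15 and the cytosolic median 0.20 in females against males.

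Hsp90 in the cytosol is made from Hsp90aa1, the inducible gene, and Hsp90ab1, the constitutive one. Hsp90ab1 had the highest level per length of all members, 340 CPM per kilobase of exon over the 6 libraries. It stood at 1051 and 1002 CPM in males, 1011 and 1288 in females and 837 and 936 after castration, and females and males overlapped (0.15 ± 0.15, adjusted p = 0.576). The sign of this difference turned without female replicate 2, to -0.02. Hsp90aa1 was at 102 and 111 CPM in males, 129 and 157 in females and 113 and 114 after castration. Females lay above the others (0.42 ± 0.13, adjusted p = 0.0997), and 58.5% of its windows are shared with other genes.

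The Cct subunits assemble in equal numbers into the TRiC ring, and their differences were alike. All 7 tested subunits were higher in both female libraries than in both male libraries, as were 26.6% of all tested genes, with log2 fold changes from 0.26 (Cct7) to 0.47 (Cct6a) and a median of 0.36. None of these passed the threshold: 0 were called by limma and 5 reached an unadjusted p below 0.05. Cct2 stood at 185 and 172 CPM in males, 208 and 272 in females and 164 and 189 after castration, and its groups of males and castrated males overlapped below the females (0.42 ± 0.15, adjusted p = 0.134). The sum over the 9 Cct genes was 2420 and 2408 CPM in males, 2723 and 3562 in females and 2293 and 2571 after castration. The size of the difference depends on the female library: without female replicate 2 the median of the 7 subunits was 0.19, still with 7 above 0, and without female replicate 1 it was 0.58. The subunit alpha is named Tcp1 and therefore lies outside the naming rule. It was at 314 and 338 CPM in males, 391 and 520 in females and 332 and 356 after castration, in the same order of groups (0.47 ± 0.15, adjusted p = 0.1). Among the 10 tested partner genes of TRiC (Tcp1, prefoldin subunits and related factors), 0 were called by limma, 2 reached an unadjusted p below 0.05, 6 were above 0 and the median was 0.09. Cct6b and Cct8l1, known from testis, had at most 1.64 CPM and were not tested.

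**Figure D4:**
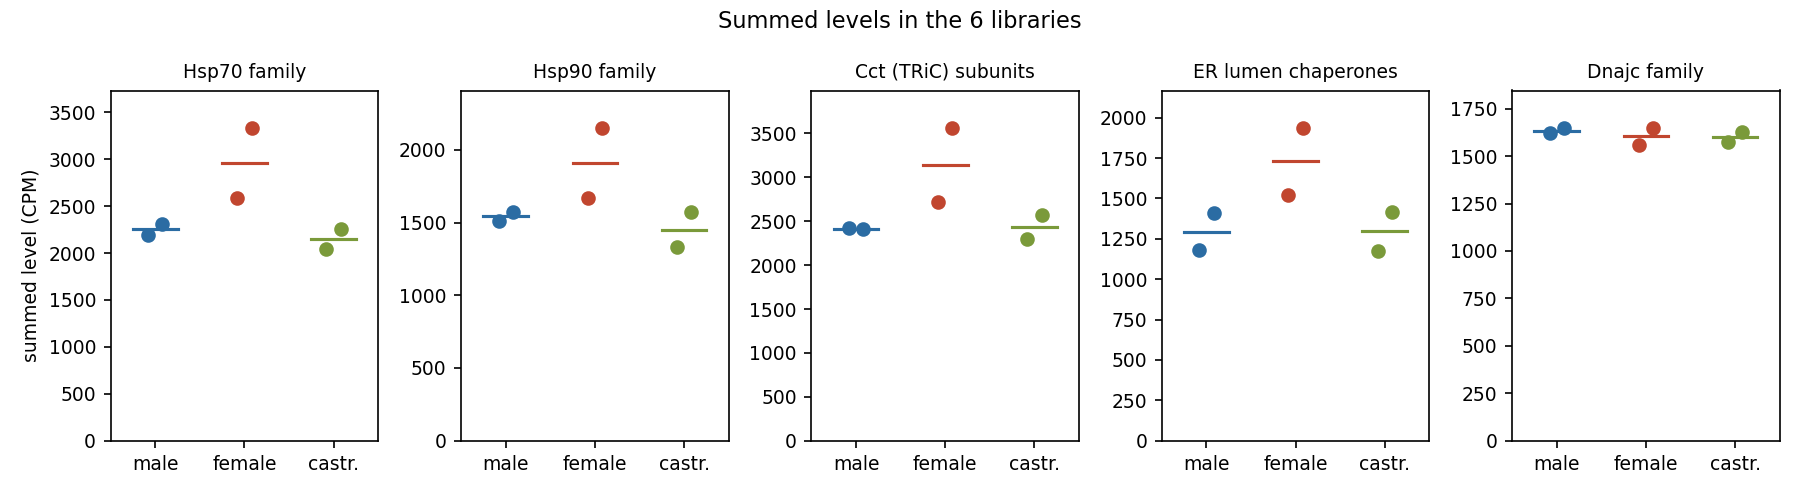
Summed level in CPM (vertical axes, from 0) of 4 chaperone groups and the Dnajc family in each library, by group; points are libraries, bars are means of 2 and castr. stands for castrated male. The sums of Hsp70, Hsp90, Cct and ER lumen genes are highest in female replicate 2, and those of Dnajc overlap between all groups.

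J proteins choose the substrates of Hsp70, and their differences were centred near 0. Of 40 tested J proteins in the Dnaja, Dnajb and Dnajc families 0 were called in any comparison by limma. At an unadjusted p below 0.05 were 2 between females and males, 2 between castrated and intact males and 3 between castrated males and females. Among the 15413 genes tested 3834, 914 and 3332 were. The medians in females against males were 0.10 for 4 Dnaja, 0.00 for 12 Dnajb and 0.01 for 24 Dnajc genes, and 3, 6 and 12 were above 0. With column totals as the only scaling the Dnajb and Dnajc medians took the other sign, at -0.06 and -0.04. Over all alternatives they ran from -0.11 to 0.07 for Dnajb and from -0.12 to 0.11 for Dnajc. Dnaja1, a main partner of cytosolic Hsp70, stood at 141 and 129 CPM in males, 159 and 164 in females and 143 and 139 after castration (0.26 ± 0.11, adjusted p = 0.207). Females were highest here without overlap. Dnajb1 (Hsp40), a heat-induced partner of Hsp70, was at 275 and 241 CPM in males, 274 and 327 in females and 236 and 269 after castration, with overlap (0.22 ± 0.14, adjusted p = 0.372). Dnajc13, an endosomal J protein, had 123 and 120 CPM in males, 92.2 and 86.8 in females and 103 and 92.5 after castration (-0.44 ± 0.12, adjusted p = 0.0672), with males above both other groups. Summed over 28 genes, Dnajc levels were 1560 to 1648 CPM across the 6 libraries. The proteins that fold, taken as the Hsp70, Hsp110, Hsp90 and chaperonin genes, had 22 of 26 tested genes above 0 and a median of 0.41. J proteins and Bag factors had 25 of 46 above 0 and a median of 0.04, and all tested genes 7530 of 15413 and -0.01. This split was not preset and leaves out the 5 tested Hspb genes, of which 1 was above 0 (median -0.51). The difference between these summaries was not tested.

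Bag proteins release the substrate from Hsp70, and Bag3 steers it to autophagy. Bag3 stood at 34.0 and 80.0 CPM in males, 101 and 130 in females and 79.4 and 83.5 after castration. Females were above both other groups, and male replicate 1 was far below the other 5 libraries. The difference between females and males was 1.13 ± 0.33 (adjusted p = 0.0762). It became a call without male replicate 2 (1.71, adjusted p = 0.00293) and was 0.52 without male replicate 1, so the size of the difference rests on which male library is used. Bag2, which inhibits the ubiquitin ligase Stub1, was low, at 2.34 and 4.11 CPM in males and 6.13 and 8.21 in females (1.07 ± 0.32, adjusted p = 0.0836). Bag1, the founding member, stood at 10.0 and 11.4 CPM in males, 13.8 and 15.4 in females and 13.4 and 15.03 after castration. Males were lowest without overlap (0.43 ± 0.20, adjusted p = 0.214). Bag4 and Bag5 were below 0 at -0.34 and -0.28, and Bag6 was at 0.03.

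Small heat shock proteins hold unfolded proteins without using ATP. Their most abundant member per length was Hspb8, the partner of Bag3, at 115 and 111 CPM in males, 119 and 79.5 in females and 119 and 121 after castration, with overlap (-0.21 ± 0.18, adjusted p = 0.504). Hspb1 (Hsp25), which in skin is known from differentiating layers, was at 6.07 and 5.05 CPM in males, 4.91 and 2.82 in females and 6.48 and 4.55 after castration. The female values lay below the male ones (-0.51 ± 0.32, adjusted p = 0.363), but 51.7% of its windows are shared with other genes, among them a pseudogene, which can take its reads. Hspb11, known as a subunit of intraflagellar transport rather than a stress protein, had 21.7 and 28.9 CPM in males and 15.1 and 14.9 in females (-0.72 ± 0.20, adjusted p = 0.0712). Of the 5 tested Hspb genes 0 were called by limma, 1 reached an unadjusted p below 0.05, 4 were below 0 and the median was -0.51. The 4 include Hspb11 and Hspb2 (-0.70). Hspb2 passed the minimum level in both libraries of castrated males only, so its low female values support nothing. No direction of the family is read from this median. Cryab, an alpha-crystallin of the same protein family under another name, fell in females: it was at 9.37 and 10.3 CPM in males, 2.97 and 0.769 in females and 5.57 and 7.40 after castration (-2.30 ± 0.43, adjusted p = 0.0240). Cryab overlaps Hspb2 on the opposite strand by 252 bases, and without a known strand setting their reads cannot be told apart in that stretch.

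Listed targets of heat shock factors were split. Of 15 members listed as targets, 10 were above 0 in females against males (median 0.22), Hspa4l and Hspe1 rose and Hspa1b fell. These 3 were 20% of the list, where 6.1% of all tested genes were called, and no test was run over the list. The factors themselves were not called by limma, with 2 of 3 at an unadjusted p below 0.05. Hsf1 stood at 68.9 and 91.5 CPM in males and 79.4 and 76.9 in females (-0.02 ± 0.15), Hsf2 at 14.1 and 16.7 against 11.7 and 5.38 (-0.90 ± 0.33, adjusted p = 0.141), and Hsf4 at 1.81 and 2.702 against 1.02 and 0.385 (-1.23 ± 0.38, adjusted p = 0.0932). A list of 17 genes, made of Hsp70 and Hsp90 co-chaperones with Cryab and the collagen chaperone Serpinh1, had a median of 0.13 with 11 above 0. Cryab, which is not a co-chaperone, was the 1 called gene, so no co-chaperone on the list was called. Fkbp5, an Hsp90 partner known as a target of glucocorticoid and androgen receptors, was at 33.0 and 22.9 CPM in males, 18.2 and 13.3 in females and 19.1 and 13.8 after castration (females against males -0.80 ± 0.25, adjusted p = 0.0974). Of 14 immediate early genes, which respond to cell isolation as well as to growth signals, 7 rose in females against males (6 with voom weights), where 3.7% of all tested genes did, and the other 7 did not pass the test. The median of the 14 was 0.70, with 10 higher without overlap. Castrated against intact males gave a median of 0.61, with 13 above 0, 10 higher without overlap, 8 at an unadjusted p below 0.05 and 0 called by limma. Both comparisons share the intact male libraries. The largest change among the called ones was that of Socs3, a brake on cytokine signalling, at 15.6 and 16.7 CPM in males, 54.2 and 71.8 in females and 29.7 and 33.0 after castration (1.92 ± 0.18, adjusted p = 0.00151). The part of cell isolation in the chaperone values was not tested.

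Between castrated and intact males no chaperone gene passed the test. Of the 77 members 0 were called by limma and 0 with voom weights, and 6 of all tested genes (0.0389%) were called by limma. An unadjusted p below 0.05 was reached by 4 members and by 914 of the 15413 genes tested. The median of the members was -0.02, with 36 above 0, and the median of all tested genes was 0.00. Castrated males lay above intact males without overlap in 17 members (22.1%, against 17.3% of all tested genes) and below them in 13 (16.9%, against 18.2%). The members with the smallest unadjusted p were Hspa12a, at 23.1 and 21.5 CPM in castrated males and 14.5 in both intact libraries (0.61 ± 0.17, adjusted p = 0.606), Hspa1b (-0.35 ± 0.12, adjusted p = 0.760), Dnajc2, a J protein of the ribosome (0.56 ± 0.20, adjusted p = 0.764) and Dnajc13 (-0.32 ± 0.12, adjusted p = 0.788). Hspa2 had a difference of -0.39 ± 0.22 (adjusted p = 0.935). Without male replicate 2, Bag3 was called higher in castrated males (1.24, adjusted p = 0.0271).

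Castrated males against females gave a single call, Hspa2, which was higher in castrated males by 1.43 ± 0.22 (adjusted p = 0.0229). This was 1.3% of the members, where 1.73% of all tested genes were called, 0.571% higher and 1.15% lower. This comparison and that of females with intact males share the female libraries, so their values are given side by side and not as a second observation. Hspe1 had differences of -0.93 ± 0.20 from females in castrated males (adjusted p = 0.0535) and 0.83 between females and males, Hspa4l of -0.66 ± 0.15 (adjusted p = 0.0644) and 0.69, and Hspd1 of -0.70 ± 0.16 (adjusted p = 0.0661) and 0.63. All 7 tested Cct subunits were below 0 (median -0.38), 6 of them without overlap, and so were all 3 Hsp90 genes (median -0.37). Over the 77 tested members the median was -0.05 with 31 above 0, and it was 0.02 with column totals as the only scaling. Castrated males lay above females without overlap in 21 members (27.3%, against 29.4% of all tested genes) and below them in 29 (37.7%, against 28.3%). For ER lumen members the median was -0.16 and for cytosolic ones -0.15. Hspa2 lost its call without either castrated male library or without female replicate 2, with adjusted p from 0.104 to 0.299, 15 members were called without female replicate 1 and 3 without either male library.

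Levels per kilobase of exon were high for constitutive chaperones of each compartment. As means over the 6 libraries they were 177 CPM per kilobase for Hspa8, 174 for Cct5, 138 for Hspa5, 130 for Hspa9 and 122 for Hsp90b1, against 40.4 for Hspa1a and 29.7 for Hspa1b. The length is that of all exons merged, which can far exceed a single transcript (6778 against 2441 bases for Cct7), so no order is read among close values. Shared windows can also lower a level. They were 66.3% for Hspa1a, 62.3% for Hspa1b and 74.8% for Hspa8, but 0% for Hspa5, 4.1% for Hspa9 and 13.8% for Hsp90b1. How far Hspa1a and Hspa1b lie below the constitutive genes is therefore uncertain. All members together took 0.957% to 1.22% of a library's reads, with the highest share in female replicate 2. Members with a mean level of at least 100 CPM, a limit set after the values were seen, were above 0 in females against males in 24 of 30 cases (median 0.23), where 57.3% of all tested genes at that level were (median 0.06). The remaining 47 members had 24 above 0 and a median of 0.03. The 11 members below the test minimum had at most 2.34 CPM in any library. Hspb3 and Hspb7, known from muscle, and Dnajc5g had 0 reads in all 6 libraries, which allows up to 3 reads, worth 0.307 to 0.385 CPM.

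**Figure D5:**
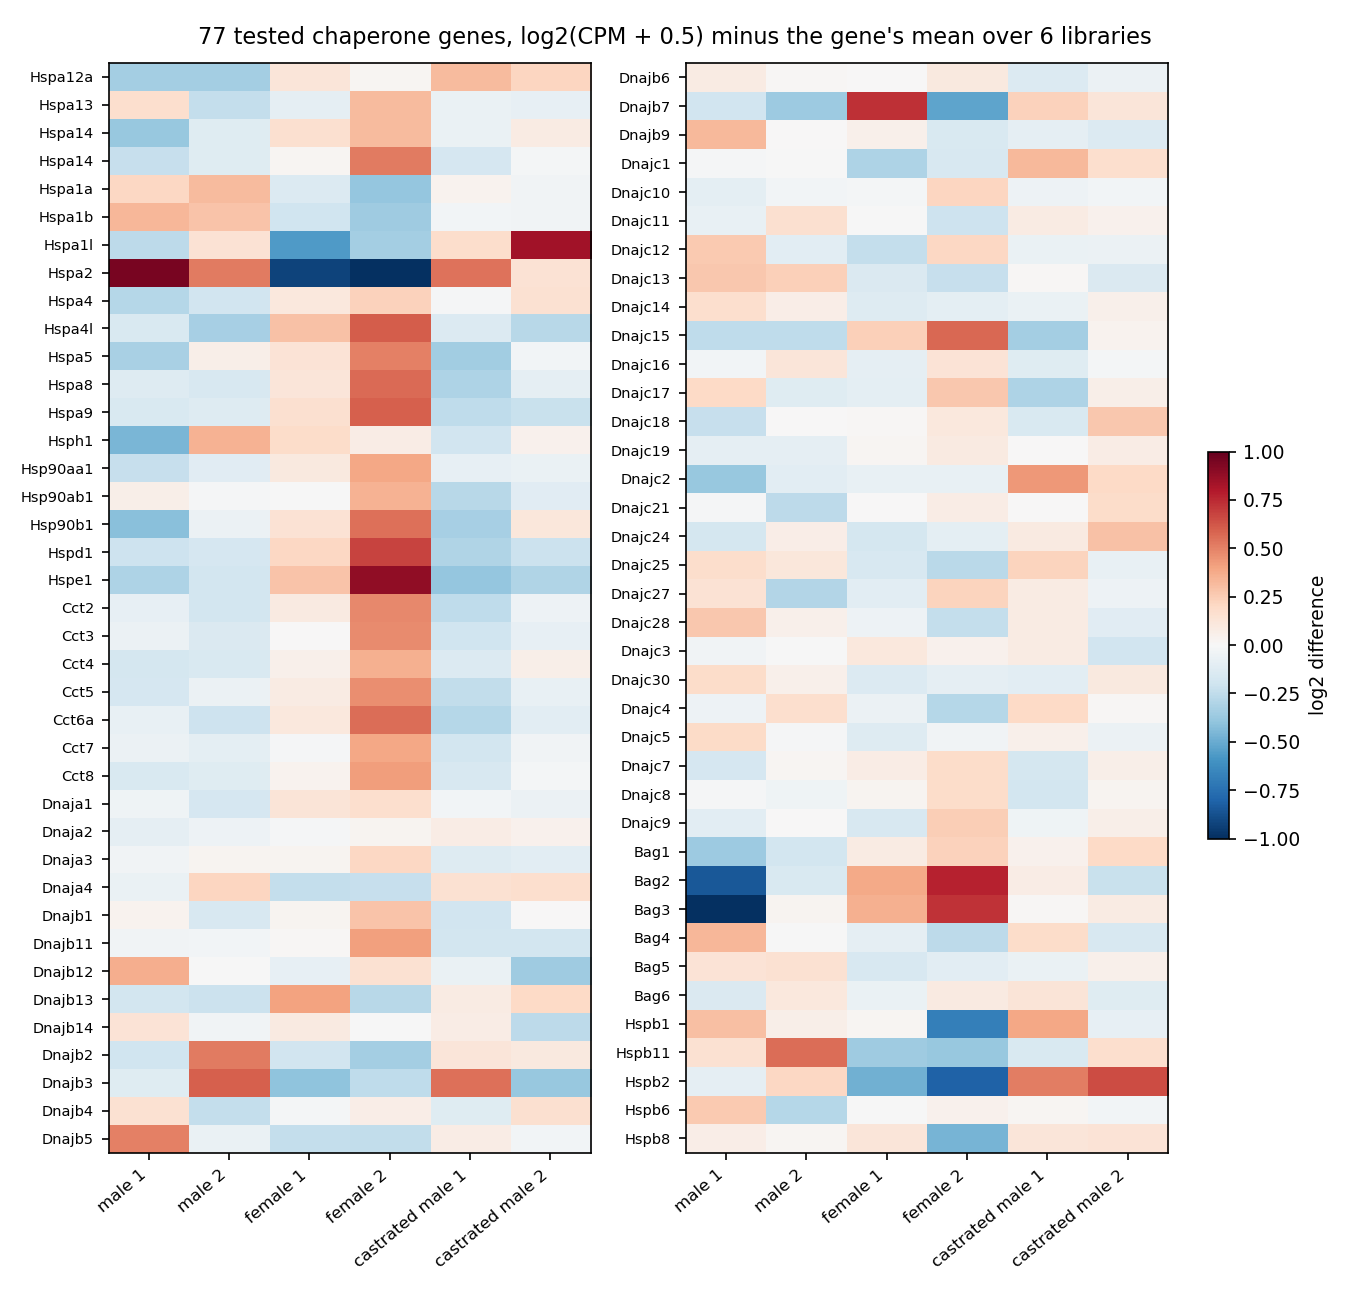
Each of the 77 tested chaperone genes (rows, by family) in each library (columns); colour is log2(CPM + 0.5) minus the gene's mean over the 6 libraries, and it saturates at -1 and 1. The column of female replicate 2 is the reddest over the Hsp70, Hsp90, chaperonin and Cct rows, and Hspa2, Hspa1a and Hspa1b show the reverse.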

How the data were processed

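RNA-seq of 6 libraries was analysed, 2 each of intact male, female and castrated male mice. Tools named in the submitters' processing notes are STAR 2.7.5a, HTSeq 0.11.1, FastQC and Picard, and the builds GRCm38 and mm10. For the annotation, the strand setting and the scaling, the authors' choice is not given in the sources used here. As deposited, each value is a score: reads per gene, scaled to nearly the same total in every library and rounded. Every value lay within 0.5 of a multiple of 1 step per library, and division by the step gave whole reads. These reads were tested on a log scale, and no count model was run.

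Libraries were scaled by trimmed means of log ratios (factors 0.927 to 1.03) to CPM. Genes with 1.16 CPM in 2 libraries and 15 reads in all were tested with limma 3.58.1 (R 4.3.3) on log2(CPM + 0.5), all 6 libraries in 1 fit with 3 residual degrees of freedom, an intensity trend and Benjamini-Hochberg adjustment; all p-values are two-sided. At this depth 1 read was worth 0.104 to 0.119 CPM, and limits from 0 reads cover counting error only. Fold changes understate those of genes with few reads. The fit and the step search were tested on simulated data.

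The members, the gene lists and the compartments were chosen with earlier results of these data known, so they support nothing by their direction. Every member may be named; called members and 20 preset members have their values in each library, and other genes come from the lists or were chosen after their values were seen. Positions, exon lengths and shared 50-base windows come from GENCODE M21 (GRCm38), and promoters from RefSeq (GRCm38.p6). The alternatives were other filters, pseudocounts, scalings, fits and leaving out each library.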

Additional observations from a re-analysis of the deposited data

How the results depend on the processing

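With 2 pools per group the counts of called members moved with the fit. Against the 4 members called in females against males, 1 was called with no low-value filter, with only the 2 groups in the fit and with no trend in the prior variance (Hspa2 each time), and leaving out 1 library gave 0 to 18. Castrated against intact males gave 0 to 1 when 1 library was left out and 0 under the other alternatives. Against the 1 member called in castrated males against females, 0 were called with no low-value filter, no trend or voom precision weights, 3 with only the 2 groups compared, and 0 to 15 when 1 library was left out. With replicate number as a block the counts were 6, 0 and 1. The deviations of same-numbered libraries correlated by -0.15, -0.01 and 0.19. The labels give no shared litter or day for a number, so whether the numbers pair the samples is not known. Hspa2 was called between females and males in 15 of 16 alternatives (adjusted p from 0.00422 to 0.0759), Hspa4l in 9, Hspa1b in 8, Hspe1 in 7, Hspa1a in 4 and Hspd1 in 3. Of 1008 values of named members under an alternative, 953 kept their side of the threshold, 31 lost a call and 24 gained one. No called value changed sign. The scaling alternatives moved the median of all tested genes by less than 0.1 on the log2 scale, and with column totals only 44 of the 77 members were above 0 between females and males. A lone library left in a group was assumed to vary like the other groups.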
